A study of Mus musculus with 4 samples.

Results

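CD8 alpha-beta T cells are the T cells that carry an alpha-beta antigen receptor and the CD8 coreceptor as a pair of an alpha chain (Cd8a) and a beta chain (Cd8b1). They were taken from single-cell data of the small-intestinal epithelial layer as barcodes with at least 500 UMIs (unique molecular identifiers, one per captured transcript), at least 250 genes and at most 25% mitochondrial UMIs. Each had at least 2 UMIs of Cd3d, Cd3e and Cd3g together, at least 1 of Cd8b1, at least 1 of Trac, Trbc1 and Trbc2 together, none of Trdc and none of Cd4. Fabp1, an enterocyte transcript, was under 1% of the UMIs and Jchain, a plasma cell transcript, under 0.2%. This gave 81 cells of 1572 CD3 cells, of 25788 cells past the quality limits and of 44277 barcodes. The rule used the UMIs of these genes, so their levels describe the choice of cells and are no finding.

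The mice were male C57BL/6J that were 8 weeks old at the start and 15 weeks old at sampling, and for 7 weeks every group ate a high-fat diet and received l-NAME, which blocks nitric oxide synthase. The con group had 2 samples on that diet alone, and the IPA group had 2 samples on the same diet with 562.5 mg IPA per kg of diet. Each sample was a pool of 2 mice, Peyer's patches had been removed, the epithelial layer had been released with EDTA and DTT, and sorted DAPI-negative live cells had entered droplet 3′ libraries with UMIs. Barcode numbers 1 to 4 separate the libraries, but which number belongs to which sample is not given in the sources used here, so no value compares the diets.

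Most alpha-beta T cells that enter the intestinal epithelium with both CD8 chains are conventional T cells, selected on class I MHC in the thymus, primed by antigen in lymphoid tissue and then kept in the tissue. They lie beside so-called natural intraepithelial lymphocytes, which carry a gamma-delta receptor or an alpha-beta receptor with CD8 alpha-alpha homodimers, and which are known for Fc-receptor gamma (Fcer1g) and DAP12 (Tyrobp) adaptors and for natural killer (NK) type receptors. Conventional intraepithelial cells are known instead for Thy1, Cd5 and Cd6, surface proteins of the peripheral T cell.

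The cells came from libraries 1 and 3. Library 1 held 32 of them, 10.1% of its 317 CD3 cells (95% exact Clopper-Pearson interval 7.01 to 13.95%), and library 3 held 49, 3.93% of its 1246 CD3 cells (2.92 to 5.17%). The 2 intervals did not overlap, while as a share of all cells past the quality limits the values were 0.518% in library 1 (0.355 to 0.731%) and 0.777% in library 3 (0.575 to 1.03%). Libraries 2 and 4 held none among 7122 and 6185 cells, for which the same exact interval reaches up to 0.0518% and 0.0596%. They held 4 and 5 CD3 cells in all. Intervals here and below cover counting error only. Cells of 1 library share their pool of mice and were never treated as replicates.

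The median cell had 3032.5 UMIs in library 1 (range 2143 to 12396) and 3928 in library 3 (757 to 14086), and the summed UMIs were 125913 and 214169. The mitochondrial share had a median of 5.81% and 5.42%. Of the 81 cells, 61 had 2 or more Cd8b1 UMIs and 20 had exactly 1. All had at least 4 CD3 UMIs, with medians of 15.5 and 16. Just outside the rule stood 3 cells with Fabp1 at 1% or more, 17 CD3 cells with both Cd8b1 and Trdc, and 2 with both Cd8b1 and Cd4. No barcode of these cells was shared between libraries.

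The defining markers were present. Cd8a, which the rule did not ask for, was found in 31 of 32 cells of library 1 and 46 of 49 of library 3, at 1310 and 1181 CPM (a gene's share of the UMIs summed over a library's cells, scaled to the usual CPM total). Cd8b1 was at 786 and 878 CPM. Thy1 was in 18 and 30 cells at 294 and 229 CPM, Cd6 in 19 and 21 cells at 246 and 187 CPM, and Cd5 in 9 and 9 cells at 135 and 60.7 CPM. Detection of a low transcript depends on depth, and after each cell was thinned to 1000 UMIs Thy1 remained in 31.2% and 25% of cells. In epithelial droplets of libraries 1 and 3, thinned alike from median depths of 32245 and 32861.5 UMIs, Thy1 was found in 0% and 0.0491%. Free RNA can be a smaller part of the UMIs of such deep droplets than of a T cell's, so these values do not bound its level. In alpha-beta T cells with CD8 alpha only, thinned alike, Thy1 was found in 1.37% and 4.18%. Cd6 was found in 31.25% and 14.58% of the thinned CD8 alpha-beta cells, against 2.74% and 4.18% of those with CD8 alpha only. For Cd5 the shares were 15.6% and 2.08% against 0% and 2.79%, so in library 3 Cd5 was not found more often after thinning.

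Cd8b1 lies on chromosome 6 at 71322788 to 71337492 and Cd8a beside it at 71373427 to 71379171 (GRCm38 gene models). The receptor constant gene Trac lies on chromosome 14 at 54220521 to 54224198, and Trdc, which the rule required to be absent, on the same chromosome at 54142851 to 54146108.

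Markers of other cells were low, with exceptions. Cd79a, Ms4a1, Lyz2, Csf1r and C1qa had no UMI in any of the 81 cells. Igha, the heavy chain of the IgA that fills the gut, was found in 29 cells, in 15.6% and 8.33% of thinned cells against 6.47% and 3.04% of thinned epithelial droplets. Enterocyte transcripts were present in nearly every cell, with Apoa4 at 4630 and 3320 CPM. Apoa4 came mostly from 1 cell in each library, with 486 of 583 UMIs in a cell of 12388 UMIs in library 1 and 499 of 711 in a cell of 11312 UMIs in library 3. The 12 enterocyte genes listed summed to 15455 and 12159 CPM, against 9586 and 15538 in gamma-delta T cells. The highest 6% of Scrublet doublet scores held 2 of the 81 cells, and doublets were kept in the values given here.

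Some transcripts of effector and cytotoxic T cells were abundant in these cells. Ccl5, a chemokine of effector T cells, was at 15582 and 18065 CPM, in 31 of 32 and 48 of 49 cells, and ranked with Tmsb4x and Malat1 at the top of all genes. Per cell its lowest, median and highest UMIs were 0, 28.5 and 347 in library 1 and 0, 40.0 and 467 in library 3. Nkg7, a protein of cytotoxic granules, was in 31 and 48 cells at 1541 and 1564 CPM, with 0 to 29 and 0 to 30 UMIs per cell and medians of 4.5 and 5. In both libraries these 2 genes were spread over nearly all cells.

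Granzyme A was distributed otherwise. Gzma (chromosome 13, 113093824 to 113100981) reached 11961 and 9871 CPM, yet its median over cells was 0 in both libraries and its highest cells held 415 and 511 UMIs. Cells with 10 or more Gzma UMIs numbered 14 of 32 in library 1 (43.8%, interval 26.4 to 62.3%) and 16 of 49 in library 3 (32.7%, 20.0 to 47.5%). Among them the median was 104 and 113.5 UMIs, while 18 and 27 cells had none. Only 6 cells, all in library 3, lay between 1 and 9, so few cells were near the limit. The limit of 10 was chosen after the values were seen. The share with 10 or more was 69.9% and 55.3% in gamma-delta T cells, 65.3% and 63.4% in alpha-beta T cells with CD8 alpha only, and 16.7% and 31.2% in CD4 T cells.

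**Figure D1:**
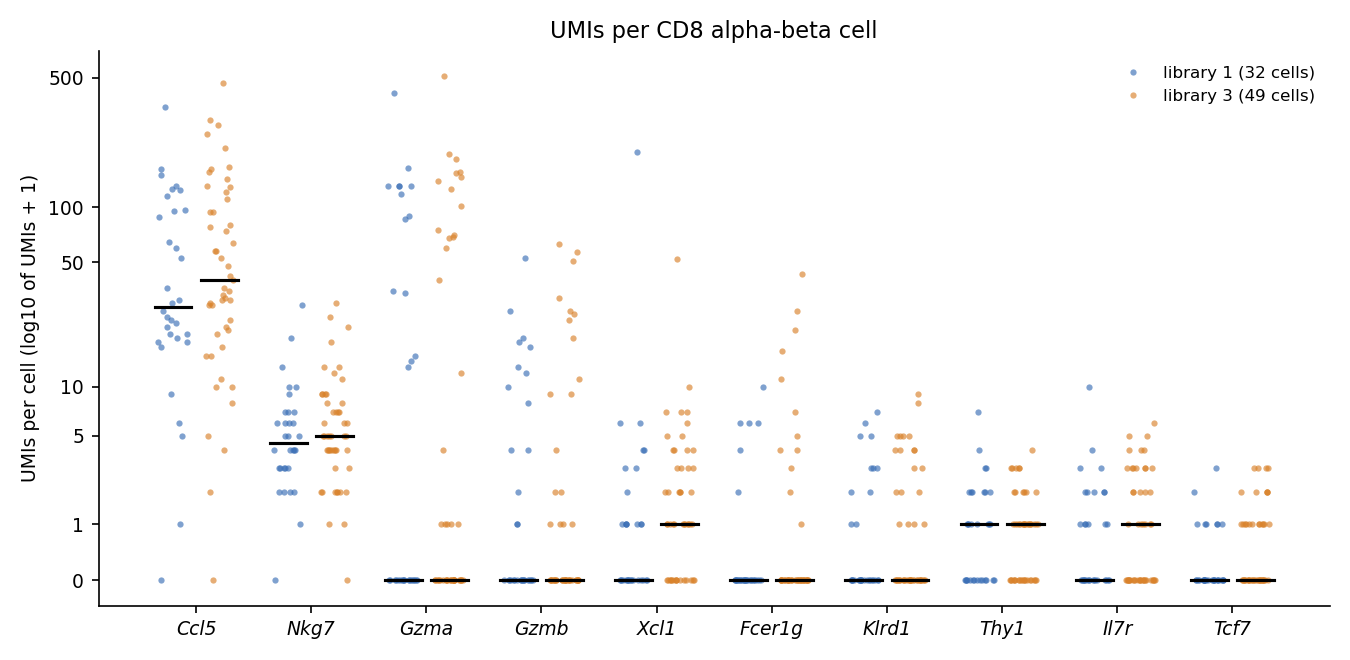
UMIs of 10 genes in each of the 32 CD8 alpha-beta cells of library 1 and the 49 of library 3, on a log10 axis of UMIs + 1, with a bar at each median. Ccl5 and Nkg7 lie above 0 in nearly all cells, while Gzma splits into cells at 0 and cells at 12 to 511 UMIs, with 6 cells of library 3 between.

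The 30 cells with 10 or more Gzma UMIs also differed from the 45 with none in other transcripts, given here as a description, since the same cells chose the split. Gzmb, the other main granzyme of the gut, had a UMI in 13 of 14 and 16 of 16 of the Gzma-high cells of libraries 1 and 3, and in 1 of 18 and 1 of 27 cells without Gzma. Itga1, the collagen-binding integrin of resident cells, was in 24 of 30 against 27 of 45. Cxcr6, a chemokine receptor of resident T cells, was in 21 of 30 against 18 of 45. Other transcripts were found more often in the cells without Gzma. Tcf7, a transcription factor of T cells that keep the capacity to renew, was in 0 of 14 and 1 of 16 Gzma-high cells and in 8 of 18 and 17 of 27 cells without Gzma. Il7r, the receptor chain for the survival cytokine IL-7, was in 6 of 30 against 29 of 45. Thy1 was in 8 of 30 against 34 of 45. The other conventional markers did not divide in this way. Cd5 was in 9 of 30 Gzma-high cells against 6 of 45, but in 1 of 30 against 5 of 44 after thinning to 1000 UMIs. Cd6 was in 14 of 30 against 23 of 45, and in 9 of 30 against 7 of 44 after thinning. Xcl1, a chemokine that attracts cross-presenting dendritic cells, was in 9 of 30 against 34 of 45, and Ccl5 and Nkg7 were in 30 of 30 against 43 of 45 each. The order for Tcf7, Il7r, Thy1 and Xcl1 was the same in both libraries. Median depths were 2655 UMIs (Gzma-high) against 3396 (none) in library 1 and 3864.5 against 3934 in library 3. After thinning to 1000 UMIs, Gzmb was in 25 of 30 against 1 of 44, Thy1 in 5 of 30 against 15 of 44, Xcl1 in 4 of 30 against 18 of 44 and Tcf7 in 1 of 30 against 8 of 44.

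**Figure D2:**
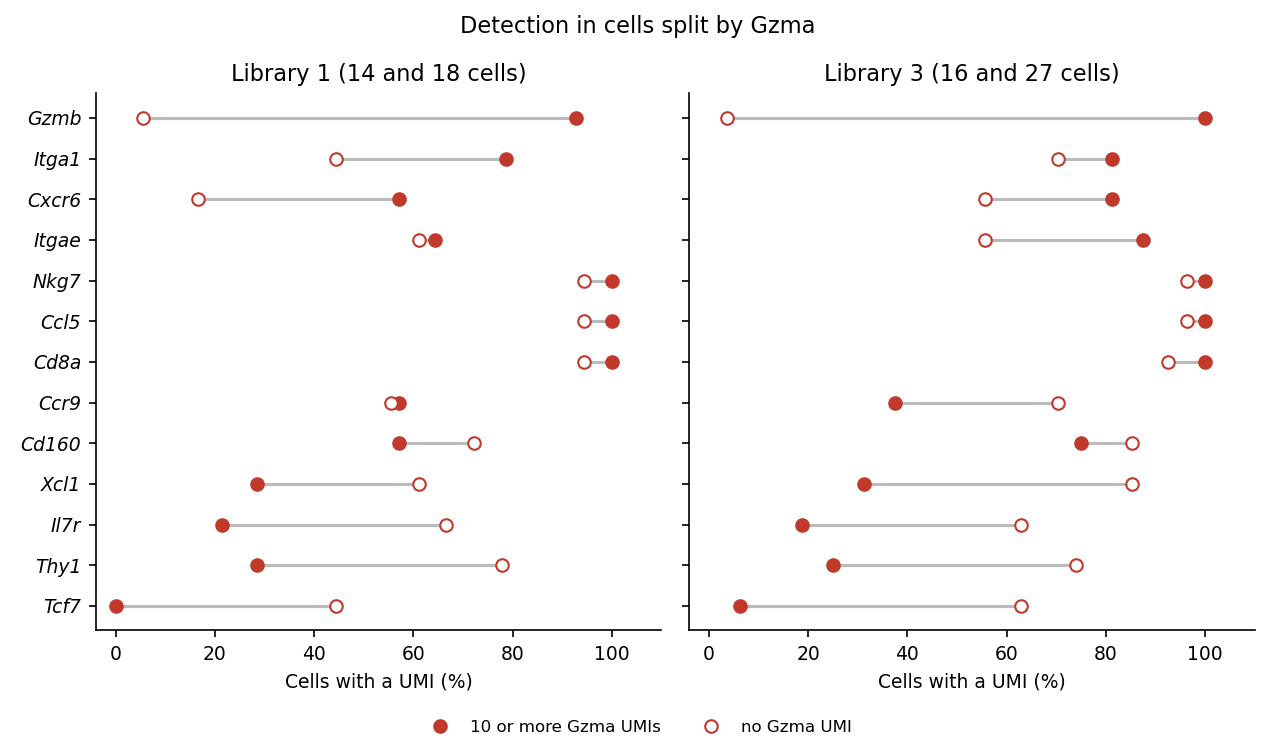
Share of CD8 alpha-beta cells with at least 1 UMI of each gene, as a percentage, in cells with 10 or more Gzma UMIs (filled) and cells with none (open), for library 1 (14 and 18 cells) and library 3 (16 and 27 cells). Gzmb lies far to the right in the Gzma-high cells of both libraries, and Tcf7, Thy1, Il7r and Xcl1 lie to the left.

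Perforin (Prf1), which opens the membrane of a target cell, was low throughout, at 39.7 and 42.0 CPM in 5 and 8 cells. Gzmk, a granzyme of less differentiated CD8 cells, was at 103 and 56.0 CPM. Ifng, the main cytokine of effector CD8 cells, was at 103 CPM in library 1 (13 UMIs in 7 cells) and 18.7 CPM in library 3 (4 UMIs in 2 cells). Fasl, a death ligand, was at 71.5 and 98.1 CPM.

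Nearly all of the cells held the tissue effector set. After thinning to 1000 UMIs, 30 of 32 cells of library 1 (93.8%, interval 79.2 to 99.2%) and 46 of 48 of library 3 (95.8%, 85.8 to 99.5%) had at least 2 UMIs of Gzma, Gzmb, Itgae, Ccl5 and Nkg7 together. Ccl5 alone can meet this limit, so the share does not measure residency. The set summed to 31133 and 31573 CPM, against 50606 and 35715 in gamma-delta cells, 53992 and 38636 in CD8 alpha only cells and 3057.5 and 13742 in CD4 cells. The residency genes ranged from abundant to barely captured. Itgae, the alpha chain of the integrin CD103 that binds E-cadherin on epithelial cells, was at 548 and 486 CPM in 20 and 33 cells. Itga1 was at 286 and 378 CPM, Runx3, a transcription factor of CD8 and resident T cells, at 373 and 374 CPM, and Cd69, which keeps cells from leaving tissue, at 159 and 238 CPM. Ccr9 and Itgb7, which guide T cells to the small intestine, were at 294 and 280 CPM and at 318 and 261 CPM. Their levels in the 2 libraries lay within 1.5 times of each other for Itgae, Itga1, Runx3, Ccr9, Itgb7 and Cd69. At the low end of the same list Zfp683, the factor HOBIT, had no UMI, Prdm1, the factor BLIMP-1, had 3 UMIs in each library, and Bhlhe40 had 4 and 10.

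Transcripts of recirculating cells were found in few cells. Ccr7, the chemokine receptor that guides T cells into lymph nodes, had 6 UMIs in 2 cells of library 1 and 2 UMIs in 2 cells of library 3 (47.7 and 9.34 CPM). Lef1, a transcription factor of naive and memory T cells, had 4 UMIs in 3 cells and 6 UMIs in 3 cells (31.8 and 28.0 CPM). S1pr1, the receptor used to leave lymph nodes, had 2 UMIs in 1 cell and 3 UMIs in 2 cells (15.9 and 14.0 CPM). These 3 genes were thus each seen in 1 to 3 cells of a library, and 1 UMI more or less moves their levels. Dapl1 had 8 UMIs in 2 cells of library 1 and Ly6c2 had 11 UMIs in 1 cell, and neither had a UMI in the 49 cells of library 3.

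Inhibitory receptors and factors of repeated stimulation were at low to moderate levels. Tox, a chromatin factor of chronically stimulated CD8 cells, was at 103 and 154 CPM in 11 and 17 cells, and Cd96, a receptor of T and NK cells, at 159 and 163 CPM. Pdcd1, the receptor PD-1, had 2 UMIs in each library, Havcr2 1 and 4, Lag3 2 and 8, and Tigit none. Tbx21 and Eomes, the T-box factors of circulating effector and memory CD8 cells, had 2 and 3 UMIs each. Mki67, a marker of dividing cells, had 1 UMI in each library, while Pcna, a DNA replication clamp, had 14 and 17, and the share of dividing cells was not measured.

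Cytokine receptors covered the survival cytokines of tissue T cells. Besides Il7r, Il2rg, the shared gamma chain, was at 183 and 229 CPM, Il21r at 103 and 154 CPM, Il2rb at 79.4 and 196 CPM and Tgfbr2, a receptor chain for the residency cytokine TGF-beta, at 143 and 135 CPM. Ahr, a receptor for indoles and other ligands that intraepithelial lymphocytes need, was at 71.5 CPM (9 UMIs in 7 cells) in library 1 and 126 CPM (27 UMIs in 19 cells) in library 3. Its target Tiparp went the other way, at 87.4 and 14.0 CPM, while Ahrr had 2 UMIs in each library and Cyp1a1 and Cyp1b1 had none in any of the 4 T cell classes. Ahr was not called against any class, with changes of 0.47, 0.53 and -0.04 against gamma-delta, CD8 alpha only and CD4 cells (adjusted p = 0.609, 0.549 and 0.987). Of the MHC class I genes H2-K1 was at 2637 and 2568 CPM and B2m at 2105 and 1849 CPM, summed over the cells. Of the interferon-responsive genes Ifi47 was at 159 and 243 CPM.

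Receptor constant genes of alpha-beta T cells were present, as the rule required. The gamma chain constant genes Tcrg-C2 and Tcrg-C4 were found too, in 16 and 34 cells and in 16 and 33 cells of libraries 1 and 3. Their levels were 381 and 509 CPM for Tcrg-C2 and 270.0 and 345.5 CPM for Tcrg-C4. Trbc1 and Trbc2, 2 near-identical copies whose reads may be exchanged, were both found in 25 of 32 cells of library 1 and 24 of 49 of library 3, Trbc2 alone in 5 and 24, and Trbc1 alone in 2 and 1. Trac was found in 24 and 44 cells. Variable segments were rarely captured, any Trav in 7 and 5 cells and any Trbv in 2 and 5. Trav16 was found in 4 cells, all in library 1, and Trbv12-2 in 3 cells, all in library 3. With so few cells holding a segment, clonal sharing could not be measured.

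Some of the cells carried transcripts of natural intraepithelial lymphocytes. Fcer1g was found in 18 of the 81 cells, 6 in library 1 and 12 in library 3, and in those cells its highest count was 10 and 43 UMIs. Klrd1, the NK receptor chain CD94, was in 16 of those 18 and in 14 of the other 63. Ikzf2, the transcription factor Helios, was in 13 of 18 against 15 of 63, and Tyrobp in 5 of 18 against 0 of 63. Cd160, a member of the same natural lymphocyte list, went the other way, in 10 of 18 against 51 of 63. Conversely Il7r was in 2 of 18 against 38 of 63, Thy1 in 5 of 18 against 43 of 63, and Cd28 in 0 of 18 against 11 of 63. Gzmb was in 11 of 18 against 21 of 63. The median depth was 4171.5 UMIs in cells with Fcer1g and 3444 in those without, so depth moved with this split, and its part in the shares was not tested. The split also moved with the edge of the rule, since 10 of the 18 cells with Fcer1g had exactly 1 Cd8b1 UMI against 10 of the other 63. These 10 cells held 102 of the 178 Fcer1g UMIs and 33 of the 44 Tyrobp UMIs. Among the 61 cells with 2 or more Cd8b1 UMIs, Klrd1 was in 8 of 8 cells with Fcer1g against 13 of 53 without, Tyrobp in 3 of 8 against 0 of 53, Il7r in 1 of 8 against 32 of 53 and Thy1 in 2 of 8 against 40 of 53. In epithelial droplets Fcer1g was found in 0.0565% and 0.147% after thinning, against 18.8% and 16.7% of CD8 alpha-beta cells, and in CD4 T cells it was found in 0% and 2.08%.

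To show where the CD8 alpha-beta cells stood apart, UMIs were summed per library for 4 T cell classes and fitted together with edgeR's quasi-likelihood test, with library as a covariate. The other classes were gamma-delta T cells (Trdc present, 166 and 647 cells), alpha-beta T cells with CD8 alpha only (Cd8a but no Cd8b1, Trdc or Cd4, 75 and 361 cells) and CD4 T cells (12 and 48 cells). The 3 comparisons share the CD8 alpha-beta sums. A p-value here measures only the spread over 8 sums from 2 libraries. Since single UMIs define the classes, a CD8 alpha-beta cell without a captured Cd8b1 UMI falls among the cells with CD8 alpha only, and so does a gamma-delta cell without a Trdc UMI but with a Trbc UMI. Changes are log2 fold changes with approximate standard errors (SE). Each SE is the size of the change divided by the square root of the test's F statistic. The p-values are Benjamini-Hochberg adjusted over the 5357 genes tested, and non-gate genes at adjusted p under 0.05 were called. Cd8a, on which classes also depend, was left out of the counts with the gate genes.

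Against gamma-delta T cells, the CD8 alpha-beta cells had more transcripts of costimulation and of the receptor's scaffold, and fewer of the natural lymphocyte adaptors. Of 5357 genes tested, 23 were called higher (0.429%) and 35 lower (0.653%), and the median change over all genes was -0.001. Among the 17 tested genes of T cell receptor signalling and costimulation, 6 rose and none fell, with a median change of 0.67. Of the 6, Cd5, Cd6 and Thy1 were named as markers of these cells with results known, so their rises are no support. Of the other 14, Cd2, Cd28 and Lat rose and none fell, with a median of 0.41. Il7r was at 286 and 308 CPM in libraries 1 and 3, against 29.6 and 36.6 CPM in gamma-delta cells, and it rose by 3.19 (SE 0.26, adjusted p = 7.23e-05). The marker Cd6, a receptor for activated leukocyte adhesion molecule, was at 246 and 187 CPM against 14.8 and 10.1, a rise of 4.24 (SE 0.37, adjusted p = 0.000123). Each of these 2 genes was higher in both libraries, with no overlap between the classes' values.

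Cd28, the receptor for B7 costimulation, was at 79.4 and 60.7 CPM against 1.35 and 1.13, a rise of 5.60 (SE 0.52, adjusted p = 0.000193), the gamma-delta values resting on very few UMIs. In the CD8 alpha-beta cells it had 10 UMIs in 6 cells of library 1 and 13 UMIs in 5 cells of library 3. In each library 1 cell held 5 and 6 of these UMIs, and without that cell the levels were 40.8 and 33.4 CPM. Cd2, an adhesion receptor, rose by 3.77 (111 and 93.4 against 6.74 and 7.32 CPM, adjusted p = 0.000473). Lat, the adaptor that joins the activated receptor to its signalling enzymes, was at 421 and 416 CPM against 137 and 105, a rise of 1.85 (SE 0.20, adjusted p = 0.000656). The markers Thy1 and Cd5 rose by 2.48 and 4.21 (adjusted p = 0.0011 and 0.000991). The kinases Lck and Zap70, which act just before Lat, were not called, with changes of 0.31 (SE 0.23, adjusted p = 0.749) and -0.31 (SE 0.24, adjusted p = 0.761). Among 17 transcription factors 2 rose, Bcl11b, a factor of T cell commitment (1.53, SE 0.25, adjusted p = 0.0128), and Rora, a nuclear receptor (2.36, SE 0.34, adjusted p = 0.00438). One of 19 residency genes rose, Itga4, the alpha chain of the gut-homing integrin (1.65, SE 0.33, adjusted p = 0.0373).

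Of 11 natural lymphocyte genes 3 fell and none rose, with a median of -1.41. Fcer1g was at 270.0 and 672 CPM against 2095 and 1875 CPM in gamma-delta cells, a change of -2.05 (SE 0.37, adjusted p = 0.0191). Tyrobp was at 31.8 and 187 CPM against 1279 and 1140, a change of -3.30 (SE 0.45, adjusted p = 0.00332), and 25 of its 40 UMIs in library 3 came from 1 cell. Tcrg-C1, a gamma chain constant gene, changed by -2.80 (278 and 42.0 against 1062 and 850 CPM, adjusted p = 0.014), with 10 and 4 CD8 alpha-beta cells holding it. Since Trdc divided these classes, the fall of Tcrg-C1 is tied to the choice of cells and is no support. Against CD8 alpha only cells Tcrg-C1 was not called (-0.635, SE 0.494, adjusted p = 0.75). The gamma chain constant genes Tcrg-C2 and Tcrg-C4 were not called against gamma-delta cells, with changes of -0.489 (SE 0.366, adjusted p = 0.743) and -0.469 (SE 0.292, adjusted p = 0.663). Il2rb, the IL-2 and IL-15 receptor beta chain, changed by -1.51 (79.4 and 196 against 411 and 414 CPM, SE 0.28, adjusted p = 0.0254). Bcl2l11, which encodes the pro-death protein BIM, changed by -2.16 (39.7 and 28.0 against 172 and 133 CPM, adjusted p = 0.01). Klrd1 was at 302 and 322 CPM against 1083 and 791, a change of -1.54 that was not called (adjusted p = 0.0605).

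None of 13 cytotoxic granule genes was called by edgeR or DESeq2, and 0 had an unadjusted p under 0.05, with a median change of -0.19. Gzma changed by -0.74 (SE 0.46, adjusted p = 0.661), Gzmb by -0.58 (SE 0.45, adjusted p = 0.758) and Nkg7 by -0.26 (SE 0.20, adjusted p = 0.755), so differences of that size were within the error of these sums. The 10 MHC class I genes, 11 tested genes each of the type I and gamma interferon responses, 8 heat shock genes and 11 of glycolysis had no member called by edgeR or DESeq2 either, with medians of 0.29, 0.75, 0.39, 0.02 and 0.23. At an unadjusted p under 0.05 they held 1, 3, 2, 0 and 1 genes. Over all 5357 genes tested against gamma-delta cells, 249 higher and 289 lower genes had such a p, so most of these list counts are small beside that background.

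Secretory transcripts moved with this comparison. Of the 35 lower genes 7 were alpha-defensins, and Spink4, Muc2 and Agr2 of goblet cells were also among them. The goblet and Paneth list of 7 genes summed to 993 and 1522 CPM in the CD8 alpha-beta cells and to 19445 and 17635 CPM in gamma-delta cells. These sums came from few cells, 22 gamma-delta cells having 1% or more of such transcripts and no CD8 alpha-beta cell. With those cells left out, 20 genes were higher and 17 lower, and 16 of the 35 lower genes were still called, among them Tyrobp, Fcer1g, Il2rb, Tcrg-C1 and Bcl2l11. Muc2, Agr2, Spink4, the 7 alpha-defensins and Egr1 were no longer called. Il7r, Cd6, Cd28, Cd2, Cd5, Thy1 and Lat were called under every alternative run. With library left out of the model, Fcer1g, Il2rb, Tcrg-C1, Bcl2l11 and Itga4 were not called (adjusted p = 0.16, 0.149, 0.198, 0.079 and 0.149). With only the 2 classes in the fit, Fcer1g, Il2rb, Tcrg-C1, Bcl2l11, Tyrobp, Rora, Bcl11b and Itga4 were not called (0.0978, 0.209, 0.141, 0.101, 0.0653, 0.0843, 0.124 and 0.223). Without cells holding transcripts of other lineages (any UMI of Cd79a, Ms4a1, Igha, Lyz2 or Csf1r), Bcl11b, Rora, Itga4 and Il2rb were not called (0.181, 0.0978, 0.107 and 0.0837). In the CD8 alpha-beta class this alternative removed 29 cells, all for Igha, since the other genes had no UMI there. With at least 2 Cd8b1 UMIs Itga4 was not called (0.18).

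Against alpha-beta T cells with CD8 alpha only, which share the receptor type and the tissue, 26 genes were called higher (0.485%) and 45 lower (0.840%), with a median of -0.001 over all genes tested. Of the 17 signalling and costimulation genes 7 rose and none fell, with a median of 0.77. The markers Cd5, Cd6 and Thy1 were 3 of the 7 and are no support, and of the other 14 genes 4 rose, with a median of 0.41. Il7r was at 286 and 308 CPM against 5.79 and 14.7 CPM, a rise of 4.58 (SE 0.32, adjusted p = 1.98e-05). Lat, at 421 and 416 CPM, stood against 104 and 102 CPM, a rise of 1.98 (SE 0.21, adjusted p = 0.000801). Cd6 rose by 2.67, Cd28 by 2.64, Cd2 by 2.16 and Cd226, an activating receptor for nectin-family ligands, by 1.82 (adjusted p = 0.00224, 0.00707, 0.0127 and 0.017). Thy1 rose by 2.84 and Cd5 by 2.25 (adjusted p = 0.00102 and 0.0286). For Il7r and Lat, both libraries gave CD8 alpha-beta values above both values of the other class.

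Themis, a protein that tunes receptor signalling in T cells, was at 119 and 177 CPM against 34.7 and 15.8, a rise of 2.90 (SE 0.38, adjusted p = 0.0025). Inpp4b, a lipid phosphatase, rose by 2.14 (191 and 182 against 31.8 and 42.4 CPM, adjusted p = 0.00292). Rora and Bcl11b rose by 3.16 and 1.75 (adjusted p = 0.00151 and 0.00574). Ccr9 was at 294 and 280 CPM against 127 and 102, a rise of 1.32 (SE 0.22, adjusted p = 0.0115), and Itga4 rose by 1.64 (adjusted p = 0.0441). Lgals1, a galectin of activated T cells, was called higher in this comparison and in that with gamma-delta cells, but 30 of its 32 UMIs in library 1 came from 1 cell. Without that cell its level in library 1 was 17.6 CPM, below the 25.6 and 26.1 CPM of the gamma-delta and CD8 alpha only cells there.

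Of 11 natural lymphocyte genes 3 fell, Fcer1g (-2.21, SE 0.37, adjusted p = 0.0114), Tyrobp (-3.77, SE 0.45, adjusted p = 0.00146) and Lat2, a relative of Lat (-1.70, SE 0.35, adjusted p = 0.0386). The list's median was -1.23. Of 5 NK type receptors tested 2 fell. Klrd1 was at 302 and 322 CPM against 1059 and 954 CPM, a change of -1.70 (SE 0.34, adjusted p = 0.0351). Klre1 was at 0 and 14.0 CPM, 3 UMIs in all, against 81.0 and 142 CPM (adjusted p = 0.0262). The call of Klrd1 was lost with DESeq2 (adjusted p = 0.0904), which called 1 of the 5, with at least 3 CD3 UMIs (0.0516) and with library left out of the model (0.191), where Klre1 was not called either (0.075). Ikzf2 was at 222 and 229 CPM against 724 and 655 and was not called (-1.64, SE 0.36, adjusted p = 0.0521). Il2rb fell by 1.73 (SE 0.28, adjusted p = 0.0103) and Txk, a kinase of the Tec family, by 1.30 (SE 0.26, adjusted p = 0.0319). Among the 13 granule genes none was called by edgeR or DESeq2, and 0 had an unadjusted p under 0.05, with a median of -0.15. Over all 5357 genes tested in this comparison, 241 higher and 311 lower genes had such a p.

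Here too secretory transcripts were lower, with 9 alpha-defensins among the 45. The goblet and Paneth list summed to 9080 and 39675 CPM in the CD8 alpha only cells, and 15 of those cells had 1% or more. Without these cells 23 genes were higher and 31 lower, and 25 of the 45 lower and 23 of the 26 higher genes were still called. Leaving out cells with any UMI of Cd79a, Ms4a1, Igha, Lyz2 or Csf1r, which took away 29 of the 81 cells, left 11 higher and 12 lower. Cd2, Cd28, Lat2, Cd5, Ccr9, Txk, Itga4, Cd226 and Bcl11b were then not called (adjusted p = 0.498, 0.478, 0.255, 0.215, 0.152, 0.117, 0.094, 0.0926 and 0.0518), nor was Lgals1 (0.663). With library left out of the model, Itga4, Fcer1g, Txk, Lat2, Cd5, Il2rb, Ccr9 and Cd226 were not called (0.159, 0.105, 0.104, 0.0942, 0.0816, 0.08, 0.0747 and 0.0542), nor was Lgals1 (0.137). Lat2 was not called by DESeq2 (0.102), and Itga4 was not called with at least 2 Cd8b1 UMIs (0.192), with at least 3 CD3 UMIs (0.0538) or without the cells of secretory transcripts (0.0599).

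Against CD4 T cells the contrast ran along other genes. Of 5357 genes 9 were called higher (0.168%) and 6 lower (0.112%), with a median of 0.015 over all tested, and the CD4 sum of library 1 rested on 12 cells. Of 13 cytotoxic granule genes 2 rose and none fell, with a list median of 0.91. Nkg7 was at 1541 and 1564 CPM against 495 and 719, a rise of 1.35 (SE 0.21, adjusted p = 0.024), and Ctsw, a cathepsin of cytotoxic cells, rose by 1.59 (604 and 901 against 165 and 318 CPM, SE 0.28, adjusted p = 0.0458). Xcl1 rose by 2.62 (1858 and 705 against 178 and 196 CPM, SE 0.34, adjusted p = 0.00662), but 199 of its 234 UMIs in library 1 came from 1 cell, without which its level there was 290 CPM. Cd7, a T and NK surface protein, rose by 2.29 (1207 and 2181 against 165 and 501 CPM, adjusted p = 0.0205). In all 4 the CD8 alpha-beta values lay above those of CD4 cells in both libraries.

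Of 11 natural lymphocyte genes 3 rose, Fcer1g (4.15, SE 0.58, adjusted p = 0.0101), Cd160 (1.78, SE 0.29, adjusted p = 0.0302) and Tcrg-C4 (2.35, SE 0.42, adjusted p = 0.0467), with a median of 2.35. Fcer1g was at 0 and 39.2 CPM in CD4 cells and Cd160, a receptor for HVEM, at 140 and 196 CPM against 485 and 686 CPM. Car2, a carbonic anhydrase, was at 286 and 327 CPM against 0 and 17.4 CPM, a rise of 4.60 (SE 0.48, adjusted p = 0.00145). Its levels in gamma-delta cells (438 and 367 CPM) and CD8 alpha only cells (313 and 300.2 CPM) were near those of the CD8 alpha-beta cells, with changes of -0.35 (SE 0.24, adjusted p = 0.706) and -0.01 (adjusted p = 1.0). Nr4a2, an immediate early nuclear receptor, rose by 2.80 (SE 0.47, adjusted p = 0.0349).

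Maf, a transcription factor of helper and regulatory T cells, was at 31.8 and 14.0 CPM against 343 and 475 CPM, a change of -4.32 (SE 0.47, adjusted p = 0.00185). Cd28 changed by -2.23 (79.4 and 60.7 against 419 and 270.3 CPM, SE 0.29, adjusted p = 0.00662), so that its level lay between those of CD4 cells and of both natural classes. Ctla4, the inhibitory counterpart of CD28, changed by -2.86 (23.8 and 70.0 against 266 and 458 CPM, SE 0.48, adjusted p = 0.0368). H2afz, a histone variant that is high in cycling cells, changed by -1.58 (421 and 397 against 1637 and 924 CPM, adjusted p = 0.0386). It was the 1 gene that edgeR called of 15 cell cycle genes. It was not called without the highest Scrublet scores (0.0662), with Fabp1 under 0.5% (0.124) or without cells of other-lineage transcripts (0.135). Yet 14 of the 15 had an unadjusted p under 0.05 and DESeq2 called 3, with a list median of -2.37. Over all 5357 genes tested against CD4 cells, 266 higher and 327 lower genes had an unadjusted p under 0.05. The cell cycle list summed to 1223 and 882.5 CPM, against 4567 and 3074 CPM in CD4 cells. Smco4 and Mt1 were the other 2 lower genes (-3.12 and -3.07, adjusted p = 0.0466 and 0.0467). Il7r (203 and 388 CPM in CD4 cells), Thy1 (292 and 222) and Lat (533 and 480) were not called, with changes of -0.03 (SE 0.26), 0.07 (SE 0.32) and -0.24 (SE 0.21) and adjusted p of 0.987, 0.964 and 0.733. The markers Cd5 and Cd6 were lower than in CD4 cells in both libraries, though not called. Cd5 was at 135 and 60.7 CPM against 419 and 266 (-1.825, SE 0.345, adjusted p = 0.0532). Cd6 was at 246 and 187 CPM against 368 and 397 (-0.842, SE 0.309, adjusted p = 0.348). Without the cells of secretory transcripts Cd5 was called lower. With library left out of the model only Fcer1g, Xcl1 and Car2 of the 9 higher and Maf and Cd28 of the 6 lower genes were still called.

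**Figure D3:**
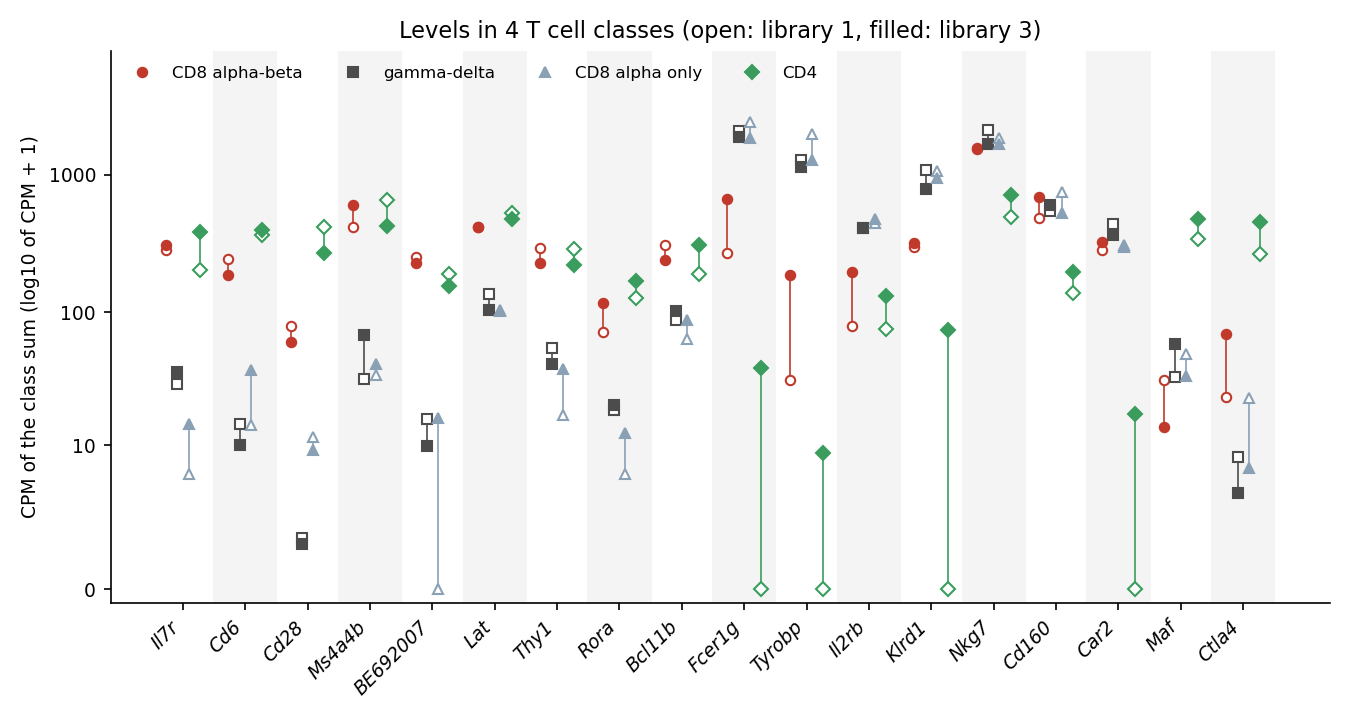
CPM of 18 genes in the sums of 4 T cell classes, on a log10 axis of CPM + 1, with library 1 open and library 3 filled. From Il7r to Bcl11b the CD8 alpha-beta points (red) lie above the gamma-delta and CD8 alpha only points and, except for Cd28 and to a lesser degree Cd6, near the CD4 points, while for Nkg7, Cd160 and Car2 they lie near those 2 classes.

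Each comparison's own calls held 20 genes called higher both against gamma-delta cells and against CD8 alpha only cells, a count that rests on the same CD8 alpha-beta sums. The 20 were Il7r, Cd6, Cd28, Cd2, Cd5, Thy1, Lat, Bcl11b, Rora, Itga4, Lgals1, Ms4a4b, BE692007, Gm8369, Ms4a6b, Themis, Inpp4b, Gmfg, Rgs10 and Tsc22d3. Of these, 6 lay within 812.3 kb of chromosome 19 (10718107 to 11530403), a window chosen after the values were seen. Cd5 and Cd6 lie at its start with A430093F15Rik between them, and Ms4a4b, BE692007, Gm8369 and Ms4a6b form a block at its end. Ms4a4b encodes a membrane protein of T cells of the CD20-like family. In the window 11 genes were tested, and the other 5 were not called in either comparison. Prpf19, Ms4a10, AW112010 and Ms4a8a had changes between -0.76 and 0.61 against gamma-delta cells, and A430093F15Rik had 3.96 (adjusted p = 0.191).

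Ms4a4b was at 421 and 602 CPM, against 32.3 and 68.5 CPM in gamma-delta cells, 34.7 and 41.9 CPM in CD8 alpha only cells and 660 and 423 CPM in CD4 cells. It rose by 3.29 (SE 0.33, adjusted p = 0.000305) against the first and by 3.71 (SE 0.36, adjusted p = 0.000465) against the second. BE692007 was at 254 and 229 CPM against 16.2 and 9.86 and against 0 and 16.3, rises of 4.39 and 4.10 (adjusted p = 0.000234 and 0.000801). Gm8369 rose by 3.73 and 3.36 (adjusted p = 0.00411 and 0.00963) and Ms4a6b by 1.89 and 1.88 (adjusted p = 0.00221 and 0.00292). The block's genes are close relatives whose reads may be exchanged, and BE692007 is annotated as an antisense gene, while the strand setting of the counting is not given in the sources used here. Their levels are therefore uncertain gene by gene.

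The promoters of 3 genes of the block are shown because these genes were called together and to show how alike they are, from RefSeq with GRCm38.p6, each as 300 bases on the plus strand. For Ms4a4b and Ms4a6b they run from 250 bases before to 50 after the start of the gene model, while the RefSeq entry for Gm8369 lies inside its gene model, which starts at 11488955. They are chr19:11443308-11443607 for Ms4a4b, chr19:11491788-11492087 for Gm8369 and chr19:11518309-11518608 for Ms4a6b, and capitals mark the letters GGAAGT or, on the other strand, ACTTCC, the core that Ets-family factors bind.
Ms4a4b: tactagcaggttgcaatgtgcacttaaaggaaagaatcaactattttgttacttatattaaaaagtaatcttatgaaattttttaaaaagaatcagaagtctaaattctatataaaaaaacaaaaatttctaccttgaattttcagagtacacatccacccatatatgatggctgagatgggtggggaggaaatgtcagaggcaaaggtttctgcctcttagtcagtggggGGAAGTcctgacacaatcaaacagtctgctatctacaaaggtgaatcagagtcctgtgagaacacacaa
Gm8369: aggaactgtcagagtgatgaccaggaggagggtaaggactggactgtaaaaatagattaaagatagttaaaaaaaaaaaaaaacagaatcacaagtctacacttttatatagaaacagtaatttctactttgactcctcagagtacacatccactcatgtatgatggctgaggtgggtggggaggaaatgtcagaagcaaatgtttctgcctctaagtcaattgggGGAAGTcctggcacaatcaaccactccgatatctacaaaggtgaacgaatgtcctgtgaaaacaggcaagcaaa
Ms4a6b: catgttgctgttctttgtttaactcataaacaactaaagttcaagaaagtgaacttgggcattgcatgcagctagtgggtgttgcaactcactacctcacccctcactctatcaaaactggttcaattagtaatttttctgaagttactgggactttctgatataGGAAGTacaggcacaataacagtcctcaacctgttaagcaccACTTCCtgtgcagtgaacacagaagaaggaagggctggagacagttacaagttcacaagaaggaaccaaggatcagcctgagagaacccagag
In a global alignment Ms4a4b and Gm8369 were identical at 226 of 307 columns (73.6%), against 160 of 320 (50.0%) for Ms4a4b and Ms4a6b. Of the 20 genes 15 had a promoter entry, and 7 of those 15 held the letters on either strand (Bcl11b, Cd5, Gm8369, Gmfg, Il7r, Ms4a4b and Ms4a6b). Over all 32851 promoter entries 23.8% held them. That share counts entries, while the 7 of 15 counts genes with a match in any entry. Gmfg, Themis and Tsc22d3 had several entries each, so the values are in unlike units and no excess is read from them. A match is a description of the letters and not a binding site.

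Libraries 3 and 1 were compared gene by gene with no test, since each is 1 sample. Of 2629 genes with at least 20 UMIs in the 2 sums, 151 were past 2-fold higher in library 3 (5.74%) and 90 in library 1 (3.42%), with a median log2 ratio of 0.05. Immediate early genes stood higher in library 3, 6 of 15 past 2-fold with a list median of 0.58. Junb, an AP-1 subunit, was at 310 CPM in library 1 and 1363 in library 3, a log2 ratio of 2.13 (95% counting interval 1.65 to 2.66), and in 17 of 32 against 43 of 49 cells. Zfp36l2, an RNA-binding protein that shortens the life of messages, had a ratio of 1.51 (0.81 to 2.29), Btg2 1.19 (0.54 to 1.89) and Tnfaip3, a brake on NF-kB, 1.62 (0.45 to 3.05). Junb was also higher in library 3 in gamma-delta cells (548 and 919 CPM in libraries 1 and 3), in CD8 alpha only cells (614 and 880 CPM) and in CD4 cells (558 and 1068 CPM). Jun went the other way (-0.71, interval -1.52 to 0.09), and Fos had a ratio of 0.40 (-0.26 to 1.10).

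Of 16 residency genes 4 were past 2-fold higher in library 3 and none in library 1, with a list median of 0.49. Itgae (-0.17), Itgb7 (-0.28) and Ccr9 (-0.07) were among the 12 that were not. Rgs1, a regulator of chemokine receptor signalling, was at 866 and 2176 CPM in libraries 1 and 3, a log2 ratio of 1.33 (1.03 to 1.64). Cxcr6 was at 111 and 369 CPM (1.72, 0.90 to 2.67), in 11 of 32 and 30 of 49 cells. Fcer1g (1.31, 0.77 to 1.90), Il2rb (1.29, 0.29 to 2.46), Sh2d2a, a T cell adaptor (1.30, 0.48 to 2.22), and Gm15472 (1.48, 0.61 to 2.48) completed the 8 largest.

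Several genes that were higher in library 1 rested on 1 cell. Ratios without each library's cell of most UMIs of the gene are given beside them. Xcl1 was at 1858 CPM in library 1 and 705 in library 3 (-1.40, -1.70 to -1.10), but 199 of its 234 UMIs in library 1 came from 1 cell of 5202 UMIs, and 52 of 151 in library 3 from 1 cell. Without both cells the levels were 290 and 495 CPM, a log2 ratio of 0.77. Ccl4, a chemokine of activated T cells, was at 1160 and 369 CPM (-1.65), with 105 of 146 UMIs in 1 cell of library 1, and the ratio without both top cells was -0.07. The brush border enzymes Ggt1 (-1.54) and Anpep (-1.42) had 37 of 43 and 45 of 52 UMIs in the library 1 cell that held most Apoa4, and 17 of 25 and 17 of 33 in the library 3 cell that did. Without both cells their ratios were -0.41 and 0.35. The ratios of these 4 genes thus turned or shrank when 1 cell per library was left out. Reg3b, an antimicrobial lectin of the epithelium, was at 405 and 93.4 CPM (-2.10, -2.94 to -1.34) and was spread over 26 of 32 and 18 of 49 cells. Dek, Gm26917 and Mrps14 had ratios of -1.17, -1.06 and -0.98.

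**Figure D4:**
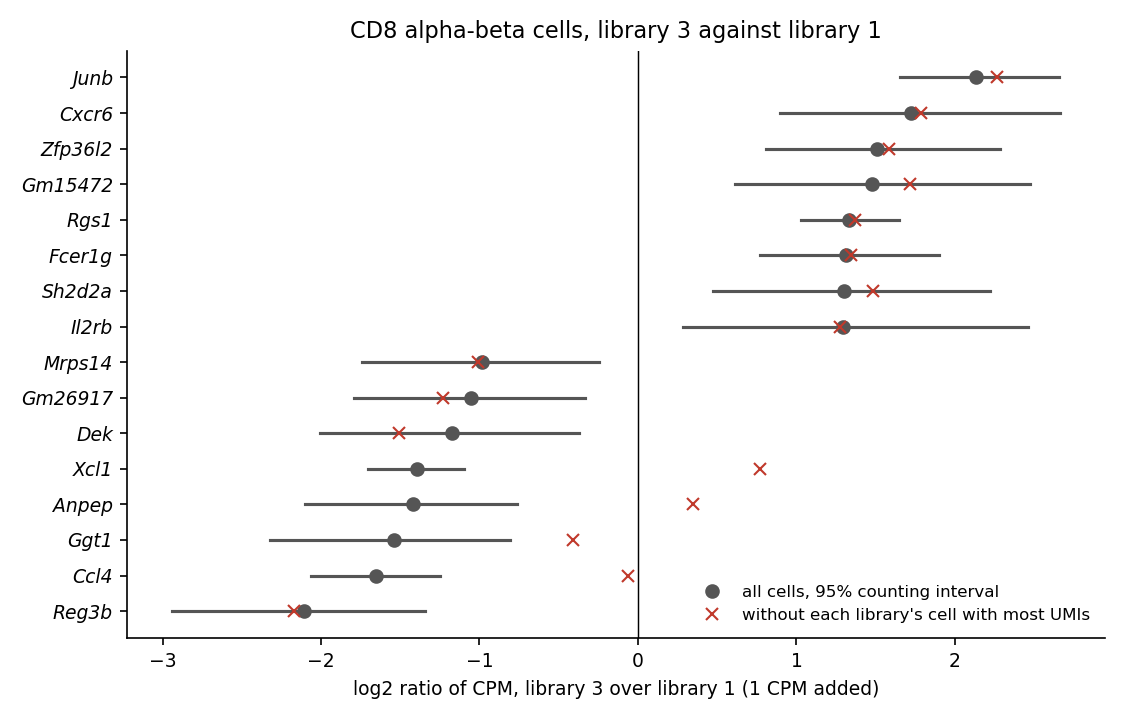
Log2 ratio of CPM in library 3 over library 1 (1 CPM added) for 16 genes in CD8 alpha-beta cells, with 95% counting intervals (grey) and the ratio without the cell of each library that held most UMIs of the gene (red crosses). The crosses for Xcl1 and Anpep lie on the other side of 0 from the grey points, those for Ccl4 and Ggt1 lie closer to 0 at -0.07 and -0.41, and those of the other 12 genes stay on their side.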

How the data were processed

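The 4 libraries were deposited by the authors as 1 matrix whose values are raw UMI counts in whole numbers, as the file header and the values show. The submitters' processing notes name Cell Ranger 6.1.1 and mm10, with no role for either. How barcodes were filtered, genes annotated and strand used is not given in the labels. The cells, the gene lists (348 of 352 genes found by symbol) and the comparisons were chosen with earlier results of these data known. The text names the cells' markers, up to 6 genes of most UMIs and any called gene per list, up to 10 genes of lowest adjusted p per direction and comparison, and the 8 largest ratios each way between libraries 3 and 1 among genes with at least 50 UMIs. Other genes, the Gzma split and the chromosome 19 window were chosen after their values were seen. UMIs were summed per library and class of at least 10 cells and tested with edgeR 4.0.16 (R 4.3.3, TMM, filterByExpr, quasi-likelihood test), which was checked on simulated counts. DESeq2 1.42.0 was an alternative. Intervals are 95% exact Poisson or Clopper-Pearson (scipy 1.17.1), and doublet scores came from Scrublet in scanpy 1.11.5. A planned share of cells with lymph node homing genes is not reported here.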

Additional observations from a re-analysis of the deposited data

How the results depend on the processing

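No paired analysis was possible because the replicate numbers of the con and IPA samples could not be tied to the barcode numbers. Leaving out each library in turn was not run, since 1 sum per class leaves no residual degrees of freedom. Counts of genes higher and lower follow for the comparisons with gamma-delta, CD8 alpha only and CD4 T cells, where they moved by over 1.5 times. At most 15% mitochondrial UMIs gave 20 and 20 against CD4 cells. At least 3 CD3 UMIs gave 21, 26 and 12 lower genes in the 3 comparisons, and Fabp1 under 0.5% gave 69 lower against CD8 alpha only cells. Without the highest 6% of Scrublet scores the counts were 62 and 71, 65 and 88, and 32 and 24. Without cells holding transcripts of other lineages they were 13 and 10, and 11 and 12, against the first 2 classes. Leaving out cells with 1% or more goblet and Paneth transcripts, an alternative chosen after seeing the data, gave 17 lower against gamma-delta cells and 16 and 21 against CD4 cells. DESeq2 gave 43 and 22, 48 and 22, and 22 and 23. With no filter on low counts they were 51 and 127, 46 and 144, and 65 and 78. With library left out of the model they were 9 lower against gamma-delta cells, 16 and 7 against CD8 alpha only cells, and 3 and 2 against CD4 cells. With only the 2 classes in the fit they were 11 and 8 against gamma-delta cells and 15 and 26 against CD4 cells.

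In library 1, leaving out cells with transcripts of other lineages moved the share with the tissue effector set to 100%. Genes past 2-fold higher in library 1 numbered 58 with at least 2 Cd8b1 UMIs and 59 with 10 CPM added. The direction turned for Ggt1 (1.143) and Anpep (2.13) between libraries with at least 2 Cd8b1 UMIs, and for Anpep with Fabp1 under 0.5% (0.364) and without the highest Scrublet scores (0.35). Spink4 turned against gamma-delta cells without cells of other-lineage transcripts (0.246) and without secretory transcripts (0.578), and against CD8 alpha only cells without secretory transcripts (0.842). Egr1 turned against CD8 alpha only cells without cells of other-lineage transcripts (0.704). The cause was not tested beyond what each alternative removes. Of the other single-gene values 1094 kept their direction and their side of the threshold, 126 kept their direction and lost their call and 10 moved. Depth limits the rare transcripts, since 1 UMI in the summed cells is worth 7.94 CPM in library 1 and 4.67 CPM in library 3.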
